A study of Mus musculus with 10 samples.

Results

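Growth hormone-dependent genes were examined in the livers of mice that carry an inactivated copy of Tgfbr2, which encodes the type II receptor for transforming growth factor beta. The set was named as 10 genes, and the platform annotation held probes for 9 of them, out of 16383 genes measured; Cyp2d9 had no probe under its symbol and is not analysed here. The members were chosen by known growth hormone dependence and with earlier results of the same comparison in view, so their differences between the groups are given as a description without a test. Of the 10 libraries, 6 came from Tgfbr2+/- mice, named as males on a chow diet, and 4 from wild-type littermates on the same diet, whose titles state no sex. Each was hybridised on a 2-colour oligonucleotide array against liver RNA pooled from 6 wild-type mice. No source used here gives the knockout allele, the strain or the age, or says whether the pool of 6 held the 4 wild-type mice.

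In liver, growth hormone binds its receptor, activates the kinase JAK2 and sends the transcription factor STAT5B to the nucleus. Male mice release the hormone in pulses with long gaps, females more evenly, and this pattern sets most sex differences in hepatic gene expression. STAT5 induces SOCS2 and CISH, which restrain the receptor's signal, while the repressor BCL6 occupies many of the same sites between pulses.

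STAT5 dimers bind a palindrome with the core TTCNNNGAA, which reads the same on either strand. RefSeq start-site windows of 300 bases on GRCm38.p6, from 250 bases before to 50 after the start, were at hand for 7 of the 10 genes, 9 windows in all since Bcl6 and Ghr have 2 annotated starts each. The core was present in 4 of the 9 windows, those of Moxd1, Cish and both Bcl6 starts; of all 32851 windows of that length, 8.30% held it. The windows of Moxd1, the member with the largest group difference, and of Cish and Bcl6, the members that hold more than 1 core, are shown 5′ to 3′ with each core in capitals. Moxd1 lies at chr10:24223267-24223566 (plus strand), Cish at chr9:107296409-107296708 (plus strand) and the Bcl6 start with 3 cores at chr16:23981234-23981533 (minus strand).
Moxd1: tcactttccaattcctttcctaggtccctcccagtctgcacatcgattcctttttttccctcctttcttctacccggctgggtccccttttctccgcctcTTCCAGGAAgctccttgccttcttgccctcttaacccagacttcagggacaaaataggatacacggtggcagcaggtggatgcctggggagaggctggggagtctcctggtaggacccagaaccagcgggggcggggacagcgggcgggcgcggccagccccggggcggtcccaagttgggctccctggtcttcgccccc
Cish: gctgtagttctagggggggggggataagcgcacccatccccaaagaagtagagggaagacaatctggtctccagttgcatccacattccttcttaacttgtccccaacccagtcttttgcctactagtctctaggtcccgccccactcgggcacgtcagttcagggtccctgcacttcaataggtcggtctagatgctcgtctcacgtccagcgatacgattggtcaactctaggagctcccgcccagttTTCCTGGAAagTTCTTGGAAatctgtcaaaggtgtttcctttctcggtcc
Bcl6: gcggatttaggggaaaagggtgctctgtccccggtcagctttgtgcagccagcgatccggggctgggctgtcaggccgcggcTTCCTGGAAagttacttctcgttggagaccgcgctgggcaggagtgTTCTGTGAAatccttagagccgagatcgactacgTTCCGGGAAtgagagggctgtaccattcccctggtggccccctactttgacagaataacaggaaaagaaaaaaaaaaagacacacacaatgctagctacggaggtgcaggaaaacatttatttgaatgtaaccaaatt
The single Moxd1 core began at base 101 of its window. In Cish the cores began at bases 251 and 262, where base 251 is the annotated start, and 0.457% of all windows held 2 or more. In Bcl6 they began at bases 83, 129 and 163, and 0.0335% of all windows held 3 or more; a second annotated Bcl6 start held 1. Windows of Hsd3b5, Slco1a1, Ghr and Cyp2d9 held no match to these letters. A match describes letters only, since binding was not measured here.

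Values are log2 ratios of liver over pool, and each difference subtracts the wild-type from the Tgfbr2+/- mean and is given ± SE. No source used here settles which way the ratio runs. Liver over pool is the likely reading, because the titles name the pool first and because a Tgfbr2 probe lay below every wild-type library in 5 of 6 heterozygous ones. Wild-type replicate 1 and Tgfbr2+/- replicate 5 correlated at -0.33 over all probes (Pearson's r), below the other pairs, whose lowest was -0.14. This 1 value leaves their directions not settled, and values with either column turned in sign are given. As deposited, wild-type replicate 1 correlated at 0.06, 0.13 and 0.04 with wild-type replicates 2, 3 and 4. Tgfbr2+/- replicate 5 correlated at 0.08, 0.13, -0.02, 0.15 and 0.04 with heterozygous replicates 1, 2, 3, 4 and 6. On that Tgfbr2 probe the heterozygous libraries read -0.82, -1.11, -1.04, 0.20, -0.86 and -0.60 and the wild-type libraries 0.42, 0.64, -0.29 and -0.07 (difference -0.88, exact permutation p = 0.0286 over 210 splits), while its second probe differed by -0.07 (exact permutation p = 0.457). The library labelled Tgfbr2+/- replicate 4 thus lay within the wild-type range on the first probe. All columns were centred near 0, and ratios to a liver pool cannot show which tissue was sampled. The 8 measured hepatocyte markers (of 12 listed) averaged -0.19 to 0.05 in wild-type and -0.06 to 0.07 in heterozygous libraries. The 11 measured Kupffer cell markers (of 12) averaged -0.26 to -0.09 in wild-type and -0.03 to 0.28 in heterozygous libraries, without overlap. Of the members, Cyp7b1 correlated most with this Kupffer mean over the 10 libraries (r = 0.68, permutation p = 0.0364, adjusted p = 0.179 over 54 relations; rho = 0.53, permutation p = 0.121; 0.53 without Tgfbr2+/- replicates 1 and 2). Hsd3b5 (r = 0.60, adjusted permutation p = 0.244), Moxd1 (r = 0.54) and Elovl3 (r = -0.53, adjusted permutation p = 0.341 for either) followed, and the other 5 lay between -0.25 and 0.20. Within the 6 heterozygous libraries r was 0.45 for Cyp7b1, 0.61 for Hsd3b5 and 0.01 for Moxd1 (exact permutation p = 0.368, 0.215 and 0.985). In whole liver, fewer cells of a type and less RNA per cell cannot be told apart.

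Among the members, Moxd1 stood far apart, Cyp7b1 and Hsd3b5 averaged higher in heterozygous liver, Elovl3 averaged lower, and the receptor, the feedback inhibitors and the repressor averaged within 0.11 of the wild-type mean. No gene of the array passed limma's adjusted p of 0.05 between the groups (0 of 16383, or 0%; 908 genes, or 5.54%, were at an unadjusted p under 0.05, 2.97% higher and 2.57% lower). The groups did not overlap for 0 of the 9 members, against 1.08% of all genes.

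**Figure D1:**
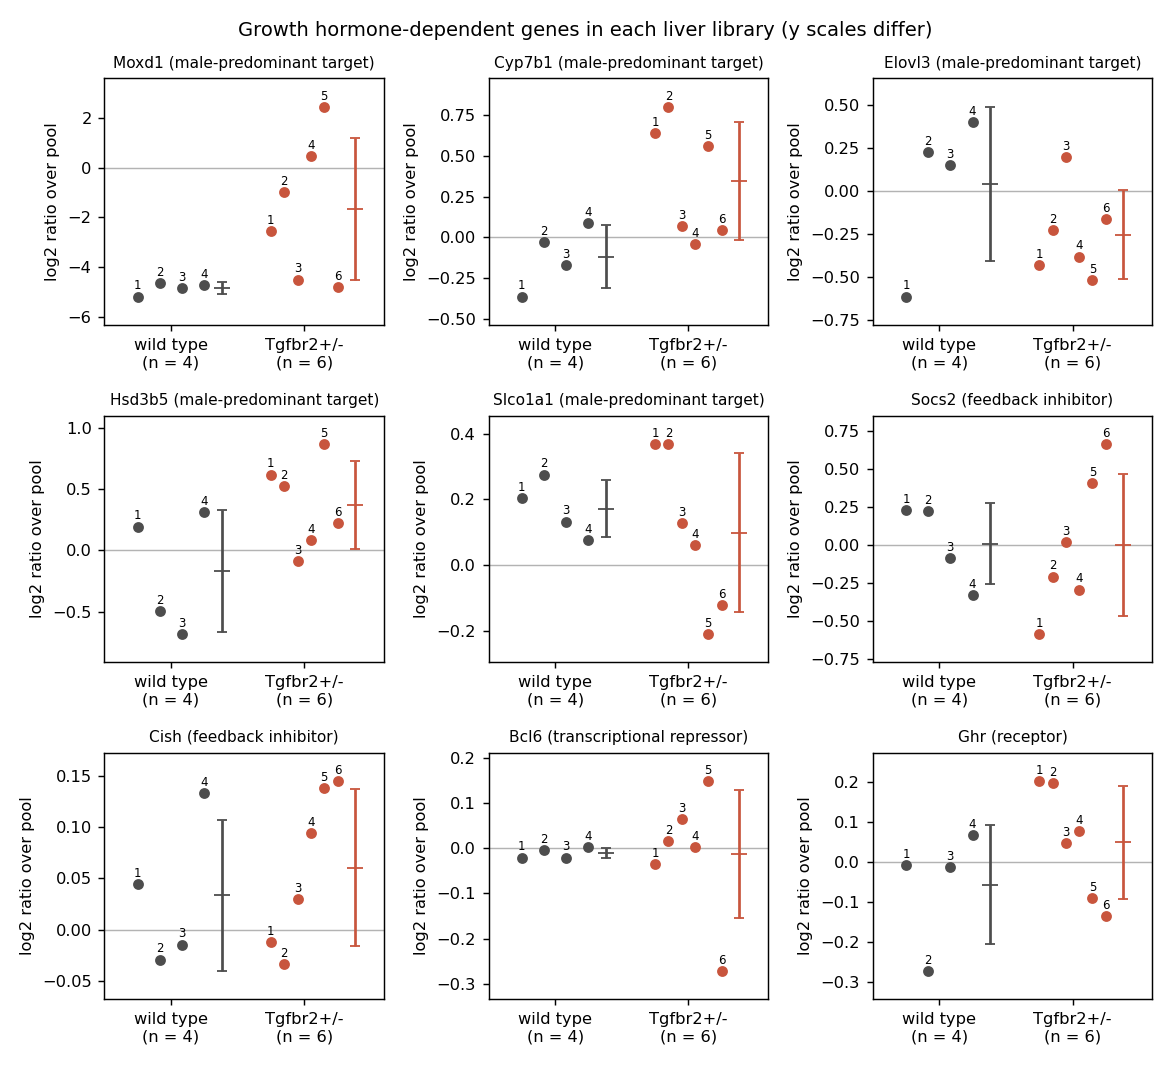
Log2 ratio over the pool (y axis, scale differs by panel) for the 9 measured members in 4 wild-type and 6 Tgfbr2+/- libraries; points carry replicate numbers and bars show mean ± SD. Moxd1 spans -4.81 to 2.44 in Tgfbr2+/- libraries and -5.18 to -4.64 in wild-type libraries, and in every panel the groups overlap.

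Moxd1 encodes a copper-dependent monooxygenase related to dopamine beta-hydroxylase and is a male-predominant, growth hormone-dependent liver transcript. In wild-type replicates 1 to 4 it read -5.18, -4.64, -4.84 and -4.71, a mean of -4.84 ± 0.24 (SD, n = 4), or 28.7-fold below the pool made from the same genotype. In Tgfbr2+/- replicates 1 to 6 it read -2.54, -1.00, -4.50, 0.44, 2.44 and -4.81, a mean of -1.66 ± 2.84 (SD, n = 6). Heterozygous replicates 3 and 6 thus sat at the level of the 4 wild-type libraries, replicates 1 and 2 between them and the pool, and replicates 4 and 5 above the pool. Since the pool is also wild type and lay far above these 4 libraries, they may not cover the wild-type range of Moxd1. The reason for that gap was not tested.

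The spread of Moxd1 within the heterozygous group amounted to 151.8-fold between its lowest and highest library, and to 38.2-fold with Tgfbr2+/- replicate 5, the highest, left out or turned in sign. Its SD there ranked 2 of 16383 genes (7 with that library turned), where the median gene had an SD of 0.11. Its SD among wild-type libraries, 0.24 and rank 1056 as deposited, was 4.96 and rank 1 with wild-type replicate 1 turned. The narrow spread over all 4 wild-type libraries thus depends on that column's direction. Wild-type replicates 2, 3 and 4, which the turn leaves as they are, read -4.64, -4.84 and -4.71, and replicate 1 read -5.18 as deposited. As deposited, no other gene lay below -4 in all 4 wild-type libraries. The mean difference was 3.18 ± 1.24 on the log2 scale, or 9.07-fold, ranked 2 by size (46 with wild-type replicate 1 turned), with 5 of 6 heterozygous libraries above all wild-type ones. It was 2.37 ± 0.89 with Tgfbr2+/- replicate 5 turned in sign. It was 0.59 ± 2.08 with wild-type replicate 1 turned, a setting that puts that library as far above the pool as wild-type replicates 2, 3 and 4 lie roughly below it. Without Tgfbr2+/- replicates 4 and 5 it was 1.63.

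Of the other male-predominant members, Cyp7b1 encodes the oxysterol hydroxylase of the acidic bile acid pathway. It read -0.36, -0.03, -0.17 and 0.09 in wild-type replicates 1 to 4 and 0.64, 0.80, 0.07, -0.04, 0.56 and 0.05 in Tgfbr2+/- replicates 1 to 6. Heterozygous replicates 1, 2 and 5 lay above every wild-type library, and replicates 3, 4 and 6 lay within their range. The difference was 0.46 ± 0.17, or 1.38-fold. Turning the column of wild-type replicate 1 gave 0.28 ± 0.18, and turning that of Tgfbr2+/- replicate 5 gave 0.28 ± 0.23.

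Hsd3b5 encodes a steroid ketoreductase found mainly in male liver. It read 0.19, -0.50, -0.68 and 0.31 in wild-type replicates 1 to 4 and 0.62, 0.52, -0.09, 0.08, 0.87 and 0.22 in Tgfbr2+/- replicates 1 to 6. The same heterozygous replicates, 1, 2 and 5, lay above the wild-type range as for Cyp7b1. The difference was 0.54 ± 0.23, or 1.45-fold, and 0.25 ± 0.29 with Tgfbr2+/- replicate 5 turned. Hsd3b5 belongs to a family of similar genes, and whether its probe reads only this copy was not tested; Hsd3b2 differed by 0.27 ± 0.19, and Hsd3b1, Hsd3b6 and Hsd3b7 by -0.08 to 0.03.

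Elovl3, an elongase of very long chain fatty acids whose level also cycles over the day, read -0.62, 0.23, 0.15 and 0.40 in wild-type replicates 1 to 4. In Tgfbr2+/- replicates 1 to 6 it read -0.43, -0.23, 0.20, -0.38, -0.52 and -0.16. Wild-type replicate 1 was the lowest of all 10 libraries and the other 3 wild-type libraries were above 5 of the 6 heterozygous ones. The difference was -0.29 ± 0.19, opposite in sign to that of Moxd1, Cyp7b1 and Hsd3b5, and rested in part on single libraries. Leaving out wild-type replicate 1 gave -0.51, and leaving out replicate 4 of that genotype gave -0.17. Turned in sign, wild-type replicate 1 gave -0.60 ± 0.14 and Tgfbr2+/- replicate 5 gave -0.12 ± 0.22. The 15 measured clock genes (of 18) averaged -0.02 to 0.03 in wild-type and -0.09 to 0.03 in heterozygous libraries.

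Slco1a1, an uptake transporter for organic anions on the sinusoidal membrane, read 0.20, 0.28, 0.13 and 0.08 in wild-type replicates 1 to 4 and 0.37, 0.37, 0.13, 0.06, -0.21 and -0.12 in Tgfbr2+/- replicates 1 to 6. Heterozygous values lay on either side of the wild-type range, with replicates 1 and 2 above it and replicates 4, 5 and 6 below it. The difference was -0.07 ± 0.11 and had no stable sign (0.03 with wild-type replicate 1 turned), with a heterozygous SD of 0.24 against 0.09 in wild type. For Cyp2d9, which hydroxylates testosterone, no probe was listed. Its relatives Cyp2d10, Cyp2d12, Cyp2d13, Cyp2d22, Cyp2d34 and Cyp2d40, looked up because of that gap, differed by -0.16 to 0.20, and none passed limma's adjusted threshold (smallest adjusted p = 0.797).

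**Figure D2:**
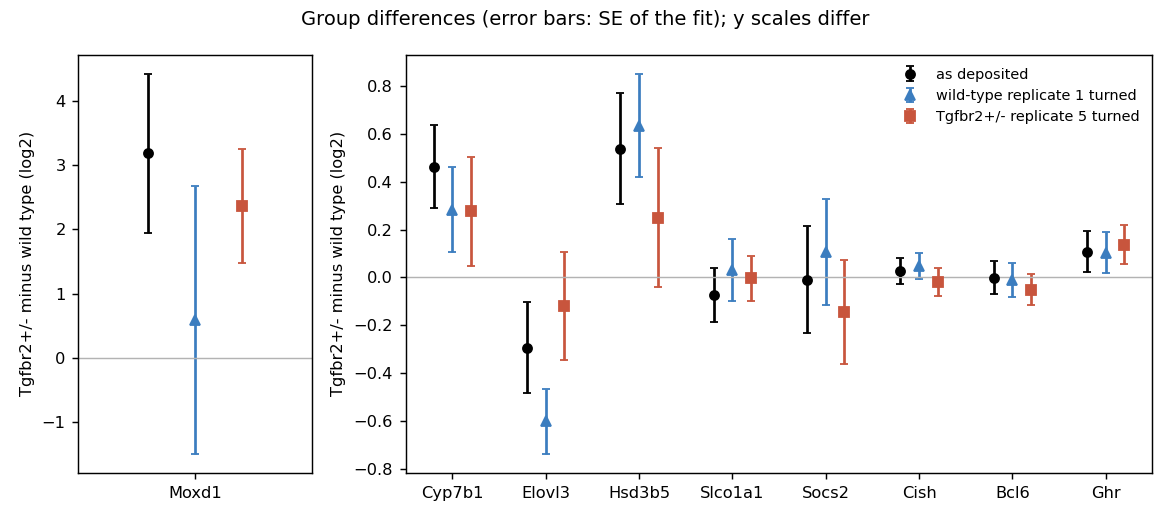
Difference of each member between Tgfbr2+/- and wild type (y axis, log2, scale differs between panels) with the SE of the limma fit, for the values as deposited and with the sign of 1 column reversed (wild-type replicate 1, or replicate 5 of Tgfbr2+/-). Moxd1 is at 3.18 as deposited and at 0.59 with wild-type replicate 1 turned; Cish, Bcl6 and Ghr stay between -0.05 and 0.14.

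The genes that carry or restrain the growth hormone signal differed little on average, and of these members Socs2 varied most between libraries. Socs2, a STAT5-induced inhibitor of the receptor, was read by 2 probes (r = 0.896 between them over 10 libraries). Their mean was 0.23, 0.23, -0.09 and -0.33 in wild-type replicates 1 to 4 and -0.58, -0.21, 0.02, -0.29, 0.41 and 0.67 in Tgfbr2+/- replicates 1 to 6. The heterozygous libraries thus spread on either side of the wild-type ones, with replicate 1 lowest and replicate 6 highest. The difference was -0.01 ± 0.22, again without a stable sign (0.11 and -0.14 with wild-type replicate 1 and Tgfbr2+/- replicate 5 turned), and the separate probes gave 0.04 ± 0.29 and -0.05 ± 0.17.

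Cish, the second STAT5-induced inhibitor, stayed between -0.03 and 0.13 in wild-type and between -0.03 and 0.14 in heterozygous libraries, a difference of 0.03 ± 0.05. Bcl6 stayed between -0.02 and 0.00 in wild-type libraries, and 5 of the 6 heterozygous libraries lay between -0.04 and 0.15; replicate 6, at -0.27, was lowest. Its difference was -0.002 ± 0.07. The receptor gene Ghr read -0.01, -0.27, -0.01 and 0.07 in wild-type replicates 1 to 4 and 0.20, 0.20, 0.05, 0.08, -0.09 and -0.13 in Tgfbr2+/- replicates 1 to 6. Its groups overlapped, with a difference of 0.11 ± 0.09, and of 0.03 without wild-type replicate 2.

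Other genes of the pathway gave no call. Of 24 measured genes of growth hormone signalling (of 26 listed), 14 had positive and 10 negative differences, and 0 passed limma's adjusted threshold. At an unadjusted p under 0.05, 2 were higher and 0 lower, beside 2.97% and 2.57% of all genes. Their median difference was 0.02, and that of all genes 0.004. The kinase Jak2 differed by 0.11 ± 0.09 and the transcription factor Stat5b by -0.08 ± 0.07. The growth factor Igf1, the main circulating product of hepatic growth hormone action, differed by -0.01 ± 0.11 and its carrier subunit Igfals by 0.06 ± 0.09. The 4 of smallest p were the binding protein Igfbp3 (0.11 ± 0.05), the phosphatase Ptpn1 (0.12 ± 0.05), the inhibitor Socs1 (0.25 ± 0.12) and the transcription factor Stat3 (0.10 ± 0.07), with limma adjusted p from 0.893 to 0.924.

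Of 18 other measured male-predominant genes (of 26 listed), 13 had positive and 5 negative differences, with a median of 0.12, where 52.6% of all genes were positive. None passed limma's adjusted threshold (0 of 18), while 3 were higher and 1 lower at an unadjusted p under 0.05, beside 2.97% and 2.57% of all genes. The median was 0.03 with wild-type replicate 1 turned in sign, 0.07 with Tgfbr2+/- replicate 5 turned and 0.08 without Tgfbr2+/- replicates 4 and 5. The 4 of smallest p were the erythroid heme synthesis enzyme Alas2 (0.15 ± 0.05), the epoxygenase Cyp2j5 (-0.19 ± 0.06), the glucuronosyltransferase Ugt2b38 (1.48 ± 0.51) and Susd4 (0.38 ± 0.17), with limma adjusted p from 0.683 to 0.900. Ugt2b38 read -1.15, -1.73, -0.90 and -1.23 in wild-type replicates 1 to 4 and -1.35, 0.57, -0.15, 0.72, 1.96 and -0.38 in Tgfbr2+/- replicates 1 to 6. As for Moxd1, all wild-type libraries lay below the pool and heterozygous replicates 4 and 5 were the highest. Unlike Moxd1, heterozygous replicate 1 lay within the range of the wild-type libraries and replicate 6 did not. Replicate 3 lay above that range for both genes, for Moxd1 at -4.50 against a highest wild-type value of -4.64. With Tgfbr2+/- replicate 5 turned in sign, 0 male-predominant genes were at an unadjusted p under 0.05 in either direction, and with wild-type replicate 1 turned 1 was, a higher one.

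Of 27 measured female-predominant genes (of 35 listed), 24 had negative and 3 positive differences, with a median of -0.27, where 47.4% of all genes were negative. None passed limma's adjusted threshold (0 of 27), and 10 were lower at an unadjusted p under 0.05, beside 2.57% of all genes. The 4 of smallest p were the fatty acid hydroxylase Cyp4a14 (-0.48 ± 0.12), the glutathione transferase Gstt3 (-0.64 ± 0.16) and the monooxygenases Cyp2b10 (-0.98 ± 0.27) and Cyp2b9 (-1.86 ± 0.52), with limma adjusted p from 0.468 to 0.620. Cyp2b9 read 0.30, -0.12, 0.32 and -1.42 in wild-type replicates 1 to 4 and -2.89, -3.42, -0.75, -1.67, -2.41 and -1.39 in Tgfbr2+/- replicates 1 to 6, so that wild-type replicate 4 lay among the heterozygous libraries. With Tgfbr2+/- replicate 5 turned in sign, 20 differences were negative, the median was -0.11 and 0 female-predominant genes were at an unadjusted p under 0.05. Without Tgfbr2+/- replicates 4 and 5 the median was -0.16 and 7 were lower at that level. The 4 measured Y-linked genes (of 6) averaged -0.03 to 0.04 in wild-type and -0.10 to 0.02 in heterozygous libraries, and no listed X inactivation gene was measured.

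Across libraries, Moxd1 was compared with the means of the sex-biased lists. The heterozygous libraries 1, 2, 4 and 5, in which Moxd1 lay at -2.54 or above, had the 4 highest means of the other male-predominant genes (0.10 to 0.24, against -0.21 to 0.04 in the remaining 6 libraries). They also had the 4 lowest means of the female-predominant genes (-0.64 to -0.53, against -0.27 to 0.08). Over 10 libraries Moxd1 correlated with the male-predominant mean at r = 0.87 (permutation p = 0.00037, adjusted p = 0.0149 over 54 relations; Spearman's rho = 0.92, permutation p = 0.00048, adjusted p = 0.0259) and with the female-predominant mean at r = -0.86 (permutation p = 0.00055, adjusted p = 0.0149; rho = -0.84, permutation p = 0.00374, adjusted p = 0.101). By Spearman's rho, then, the second relation did not pass the adjustment. Without the libraries farthest from the median, Tgfbr2+/- replicates 4 and 5, these were 0.89 and -0.88.

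These relations contain the difference between the groups, were looked at after the values had been seen, and rest on libraries that share 1 pool. The adjustment over 54 relations does not cover that choice. On values minus the mean of the own group, r was 0.80 for the male-predominant and -0.76 for the female-predominant mean (permutation p = 0.00569 and 0.0101). Within the 6 heterozygous libraries r was 0.87 for the male-predominant mean (exact permutation p = 0.0250) and -0.85 for the female-predominant mean (exact permutation p = 0.0389), each with an adjusted p of 0.420 over the same 54 relations. Within the 6 libraries of lowest Moxd1 (-5.18 to -4.50) r was 0.77 (exact permutation p = 0.0597; rho = 0.77, exact permutation p = 0.103) and -0.45 (exact permutation p = 0.401; rho = -0.31, exact permutation p = 0.564). That subset was picked by Moxd1 itself, mixes both groups and covers little of the range of Moxd1, so no conclusion is drawn from it. With Tgfbr2+/- replicate 5 turned in sign r was 0.68 and -0.42, and with wild-type replicate 1 turned 0.82 and -0.36 (permutation p of the female-predominant relation = 0.240 and 0.308). Without Ugt2b38 the first r was 0.67 (permutation p = 0.0338), and without Cyp2b9 and Cyp2b13 the second was -0.90; these genes were taken out after their values had been seen.

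**Figure D3:**
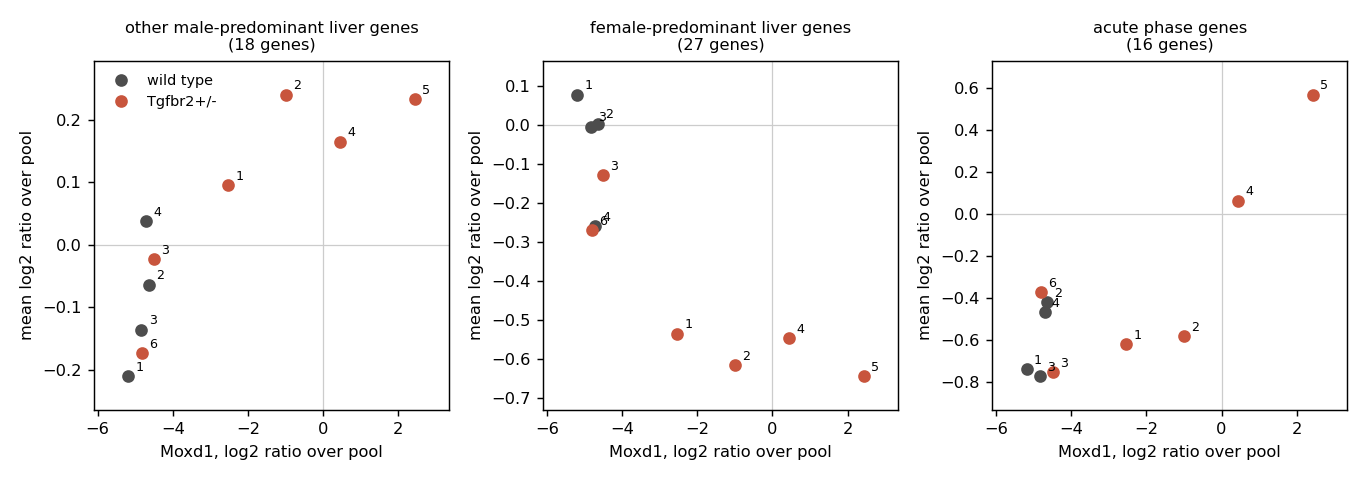
Moxd1 (x axis, log2 ratio over pool) against the mean log2 ratio of 18 other male-predominant, 27 female-predominant and 16 acute phase genes (y axes) in 10 libraries, numbered by replicate. Tgfbr2+/- replicates 1, 2, 4 and 5 lie apart from the other 6 libraries on the first and second plots, and replicates 4 and 5 on the third.

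Acute phase genes were high in 2 of the libraries with high Moxd1. The mean of the 16 measured (of 19) was -0.77 to -0.42 in wild-type libraries, 0.06 and 0.57 in Tgfbr2+/- replicates 4 and 5, and -0.75 to -0.37 in the other heterozygous libraries. Its r with Moxd1 was 0.82 (permutation p = 0.00703, adjusted p = 0.0759; rho = 0.56) and 0.01 without those 2 libraries, so the relation rests on them. The part of the acute phase genes in the Moxd1 values was not tested.

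Gene by gene, 24 of 27 female-predominant genes correlated negatively with Moxd1 (median r = -0.59, where 47.4% of all genes were negative) and 14 of 18 male-predominant genes positively (median r = 0.49). Turned in sign, wild-type replicate 1 gave 20 of 27 (median r = -0.26, where 50.3% of all genes were negative) and 14 of 18 (median r = 0.32). Tgfbr2+/- replicate 5 turned gave 21 of 27 (median r = -0.29) and 15 of 18 (median r = 0.38). Left out, it gave 21 of 27 (median r = -0.57) and 15 of 18 (median r = 0.51). Cyp7b1 (22 of 27 negative, 15 of 18 positive) and Hsd3b5 (23 of 27 negative, 16 of 18 positive) ran the same way, with 21 to 25 of 27 negative and 15 or 16 of 18 positive when either column was turned. Of all genes, 47.4% correlated negatively with Cyp7b1 and 49.8% with Hsd3b5. Without Tgfbr2+/- replicate 5, 20 of 27 were negative for Cyp7b1 (median r = -0.37) and 19 of 27 for Hsd3b5 (median r = -0.23), with 14 and 16 of 18 positive. Elovl3 ran the other way on the female-predominant list, with 24 of 27 genes positive (median r = 0.32, where 48.4% of all genes were positive). It had 26 of 27 positive with either column turned and 21 of 27 (median r = 0.20) without Tgfbr2+/- replicate 5. Slco1a1, also male-predominant, correlated positively with 19 of 27 female-predominant and 9 of 18 male-predominant genes, where 53.5% of all genes were positive. These were 13 of 27 and 13 of 18 with Tgfbr2+/- replicate 5 turned, and 10 of 27 and 12 of 18 without it. These counts describe the same 10 libraries, and genes of a list are not independent of each other.

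Among the members themselves, 28 pairs were compared over the 10 libraries. Bcl6 entered no pair, because a single gap, between Tgfbr2+/- replicate 6 and the rest, took up more than 50% of its range. Only Slco1a1 with Cish passed the adjustment, at r = -0.87 (permutation p = 0.00076, adjusted p = 0.0213; rho = -0.85, permutation p = 0.00281, adjusted p = 0.0633). Without Tgfbr2+/- replicates 5 and 6, the libraries farthest from the median of Slco1a1, r was -0.77, and within the 6 heterozygous libraries it was -0.97 (exact permutation p = 0.00833). The adjusted p rose to 0.0793, 0.0610, 0.0846 or 0.0814 without Tgfbr2+/- replicate 2, 3, 5 or 6, to 0.105 with quantile normalization, and to 0.535 and 0.264 when the column of wild-type replicate 1 and that of Tgfbr2+/- replicate 5 were turned. Cish ranged over 0.18 on the log2 scale.

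Socs2 and Ghr, inhibitor and receptor, correlated at r = -0.78 (permutation p = 0.00769, adjusted p = 0.108; rho = -0.83, permutation p = 0.00452, adjusted p = 0.0633) and at -0.70 without Tgfbr2+/- replicates 1 and 6. Cyp7b1 and Hsd3b5 correlated at 0.70 (permutation p = 0.0263, adjusted p = 0.245; rho = 0.76, permutation p = 0.0148). Moxd1 and Cyp7b1 correlated at 0.61 over all libraries and at 0.95 without Tgfbr2+/- replicates 4 and 5 (adjusted p = 0.0160 by permutation), but that pair did not pass over all 10 libraries. Elovl3 correlated negatively with Moxd1 (r = -0.54) and Hsd3b5 (r = -0.59) without passing, with adjusted p of 0.363 and 0.294 by permutation.

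**Figure D4:**
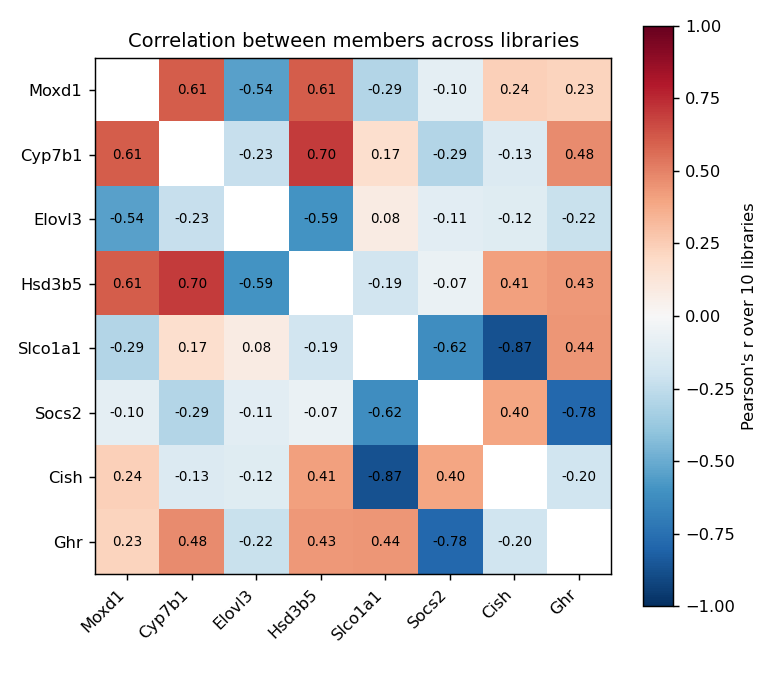
Pearson's r over 10 libraries between 8 members (colour and printed value; diagonal left blank). Slco1a1 with Cish (-0.87) and Socs2 with Ghr (-0.78) are the lowest values, and Cyp7b1 with Hsd3b5 (0.70) is the highest.

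Of all other genes, the 2 whose pattern over the 10 libraries was most like that of Moxd1 were Ddx39a (r = 0.96) and B3gnt8 (r = 0.95), which differed between the groups by 0.08 and 0.12. For Cyp7b1 they were the collagen gene Col5a3 and Adamts7 (r = 0.94 each), for Hsd3b5 Map3k4 and Ifit3 (0.92 and 0.91), and for Elovl3 Gosr1 and Psmc1 (0.93 and 0.90). For Slco1a1 they were Ndufb7 and Arg2 (0.94 each), for Socs2 Stox2 and Mcoln3 (0.97 and 0.93), for Cish Lima1 and Tagln2 (0.93 each), and for Ghr Cdkl2 and Rpp21 (0.94 and 0.92). For Bcl6, by mean absolute difference in log2 ratio, they were Gzmf and Angel1 (0.04 each). With 16382 genes compared over 10 libraries, such values describe these libraries only.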

How the data were processed

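Per the labels' protocols, liver RNA was purified on RNeasy columns with DNase and amplified by an automated aminoallyl MessageAmp II procedure. The deposited values are log ratios, 1 column per mouse, taken as log10 because 8 values sit at exactly 2 or -2, a limit of 100-fold. The series design text mentions dye swaps; scanner software, background correction, normalization and whether a column joins swapped arrays are not given in the sources used here, and neither are intensities, so signal over background is unknown.

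Ratios were converted to log2 with no further normalization, and the 17726 probes with 1 symbol, of 23438, were averaged to 16383 genes. Groups came from titles. Differences were fitted over all genes with limma 3.58.1 in R 4.3.3 (lmFit, eBayes, two-sided, Benjamini-Hochberg, threshold 0.05), after a check on simulated data. Nothing in the labels states separate litters, so p-values measure the spread between these samples. Correlations used two-sided permutation tests (100000 resamples, or all orders under 10 libraries), adjusted over 28 pairs or 54 relations of members with list means. A member with 1 gap above 50% of its range was left out of the pairs.

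Named genes were the members, the 4 of smallest p in 3 lists, 4 fixed pathway genes Tgfbr2, and the 2 most similar per member; the Cyp2d and Hsd3b relatives and Cyp2b13 were added after values had been seen. The members and lists were chosen with earlier results of these data known. The lists cover growth hormone signalling, male- and female-predominant, Y-linked, X inactivation, clock, fasting and acute phase genes and 9 sets of cell markers. Alternatives were centring, quantile normalization, array weights, turned columns, left-out libraries and a replicate block. Promoter windows are from RefSeq, GRCm38.p6.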

Additional observations from a re-analysis of the deposited data

How the results depend on the processing

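The number of genes past limma's adjusted threshold was 0 in every setting run except without Tgfbr2+/- replicate 3, where it was 10 (range 0 to 10 over single libraries left out), and 0 genes of the signalling, male- and female-predominant lists passed in any. Of the members' differences, that of Moxd1 moved by more than the spread between replicates in 1 setting, to 0.59 with wild-type replicate 1 turned in sign, and the other 8 in none. The number of pairs of members past the adjusted threshold was 1, and 0 to 3 with single libraries left out (3 without wild-type replicate 2). Without Tgfbr2+/- replicates 4 and 5 it was also 1, but Moxd1 with Cyp7b1 in place of Slco1a1 with Cish. It was 0 with quantile normalization, with either column turned in sign or by Spearman's rho, and 2 on values minus the mean of the own group. Deviations from the group means correlated with r of 0.09, 0.09, 0.30 and 0.01 between same-numbered libraries of the groups. Between libraries of the groups with unlike numbers r ran from -0.22 to 0.10. The value of 0.30, for replicate 3, was the highest of these pairs. Whether the numbers mark a pairing of mice is thus not settled. With the replicate block 0 genes passed and Moxd1 differed by 2.94 ± 0.72. In that fit Slco1a1, Cish and Bcl6 changed sign (to 0.06, -0.01 and 0.02), Socs2 went to -0.28 and Ghr to 0.19. The higher signalling genes at an unadjusted p under 0.05 were 2, and 0 with that block. With 4 and 6 arrays and no intensities, small differences of dim probes cannot be judged.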

Other observations

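The 12 measured fasting genes (of 13) averaged -0.52 to 0.27 in wild-type and -0.43 to -0.06 in heterozygous libraries, with wild-type replicate 4 the lowest of all. Their mean correlated with Hsd3b5 at r = -0.71 (permutation p = 0.0199, adjusted p = 0.154 over 54 relations; rho = -0.67) and with Ghr at -0.68 (permutation p = 0.0314, adjusted p = 0.170; rho = -0.71), at -0.26 and -0.51 without the 2 libraries farthest from each member's median. Among the remaining marker sets, means by library ran from -0.14 to 0.26 for 7 neutrophil genes, -0.06 to 0.11 for 9 sinusoidal endothelial genes, -0.33 to 0.27 for 8 stellate cell genes, -0.02 to 0.11 for 9 lymphocyte genes, -0.13 to 0.19 for 5 cholangiocyte genes, -0.07 to 0.09 for 5 pancreas genes and -0.33 to 0.07 for 4 erythroid genes, of which Alas2 is also on the male-predominant list.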
